A study of Mus musculus with 4 samples.

Results

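Proton pumping and acid-base transport genes were examined in the fetal mouse kidney, in the cortical collecting duct and in the loop of Henle anlage. The set was chosen by gene symbol: every probe set (a group of short oligonucleotides that reports 1 transcript) whose symbol begins with Atp6v or Atp6ap, plus named carbonic anhydrases, SLC4 bicarbonate transporters, pendrin (Slc26a4) and the ammonia transporters Rhcg and Rhbg. It holds 74 of the 45101 probe sets on the array and 37 of 18193 genes, of which 22 encode V-ATPase subunits or accessory proteins and 15 encode other acid-base proteins. Slc4a7, Atp6v1g3, Atp6v0c and Atp6ap1l had no probe set with that symbol in the platform table.

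The cortical collecting duct was represented by 1 array (numbered replicate 3) and the loop of Henle anlage by 3 arrays (numbered 1 to 3). Both structures were wild type, came from CD-1 mice at stage E15.5 (Theiler stage 23), of unknown sex, with no treatment labelled. Each array held RNA from about 50 sections pooled over 5 kidneys, cut out by laser and amplified over 2 rounds. Nothing in the labels says how the structures were recognised, or whether pools came from separate litters, so every p-value measures only the spread between these arrays, which may be technical.

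The V-ATPase is a rotary proton pump. Its cytosolic V1 sector splits ATP and its membrane V0 sector carries protons. All cells use it to acidify lysosomes and endosomes. Intercalated cells of the mature collecting duct also place it in the plasma membrane, with isoforms that few other cells make, and carbonic anhydrase, chloride-bicarbonate exchangers and Rh proteins complete acid and base secretion there. In the mature proximal tubule and thick ascending limb, membrane-bound carbonic anhydrase and bicarbonate transporters serve bicarbonate recovery.

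Promoter sequences are shown for 3 members: the intercalated-cell pump subunit Atp6v1b1, the widely expressed pump subunit Atp6v0b, and Car4. Car4 had the largest difference of the set. No result on signal rests on these sequences. Each is a RefSeq window of 250 bases before to 50 bases after the gene's start (build GRCm38.p6), written 5′ to 3′ on the gene's strand. Capitals mark a forkhead core in Atp6v1b1 and E-boxes in Atp6v0b, and Car4 held neither motif. The windows are chr6:83742767-83743066 (+ strand) for Atp6v1b1, chr4:117887280-117887579 (− strand) for Atp6v0b and chr11:84957504-84957803 (+ strand) for Car4.
Atp6v1b1: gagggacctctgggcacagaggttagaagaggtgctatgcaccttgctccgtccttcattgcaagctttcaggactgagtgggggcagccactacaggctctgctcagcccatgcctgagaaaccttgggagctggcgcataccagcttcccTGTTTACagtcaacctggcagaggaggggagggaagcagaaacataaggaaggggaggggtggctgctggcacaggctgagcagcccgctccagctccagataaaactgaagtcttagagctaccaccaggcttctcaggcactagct
Atp6v0b: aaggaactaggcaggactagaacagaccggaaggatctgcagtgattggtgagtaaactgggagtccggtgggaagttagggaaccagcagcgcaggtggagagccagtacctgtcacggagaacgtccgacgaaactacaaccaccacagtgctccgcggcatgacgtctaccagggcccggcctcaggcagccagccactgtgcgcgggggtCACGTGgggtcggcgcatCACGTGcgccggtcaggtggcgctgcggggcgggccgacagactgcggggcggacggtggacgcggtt
Car4: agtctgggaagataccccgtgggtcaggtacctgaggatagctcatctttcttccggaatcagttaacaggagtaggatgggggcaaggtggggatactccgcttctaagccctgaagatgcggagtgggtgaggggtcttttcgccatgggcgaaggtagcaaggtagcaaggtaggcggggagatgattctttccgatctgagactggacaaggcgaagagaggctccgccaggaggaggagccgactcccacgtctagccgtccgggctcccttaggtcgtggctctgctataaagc

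Both motifs were searched on both strands in the 28 windows that the table gives for 26 of the 37 genes. The forkhead core TGTTTAC, letters that FOXI1 and other forkhead factors can bind, was in 1 of 28 member windows (3.57%), that of Atp6v1b1. It was in 3.65% of all 32851 windows of this length, close to the member share. The E-box CACGTG, the core of the element bound by lysosomal regulators such as TFEB, was in 4 of the 17 V-ATPase windows (Atp6v0b, Atp6v0d1, Atp6v0e and Atp6v1a), in 0 of 11 windows of the other members, and in 7.15% of all windows. Atp6v0b held 2 E-boxes, beginning 36 and 18 bases before the start. These are matches of letters, and no binding was measured.

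Values are given as quantile-normalized signal, in linear signal units, and differences as the collecting duct value minus the anlage mean of log2(signal + 109.6). That offset makes a difference of a dim gene smaller than its true size. Genes whose mean over the 4 arrays was under 8.416 on this log2 scale were not tested. Of the 37 members, 32 passed this filter, 21 of 22 V-ATPase genes and 11 of 15 others, and Atp6v1g2, Slc4a5, Slc26a4, Rhcg and Rhbg did not. Levels of different genes are not compared, since probe sets differ in how they bind.

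The arrays matched their labels on segment markers. The marker lists were chosen with earlier results of these data known, so the match is not an independent check. Summed signal of 10 collecting duct markers was 108442 in the collecting duct, compared with 6631 to 18859 in the anlage, and that of 8 loop of Henle markers was 2394 in the collecting duct and 20104 to 84534 in the anlage. The ratio of 3′ to 5′ signal for Gapdh, which grows as the labelled RNA shortens, differed between arrays. It was 12.0 for the collecting duct, compared with 10.3, 54.1 and 26.0 for anlage arrays 1, 2 and 3. Whether RNA integrity or the amplification set this ratio was not tested. In tissue captured in bulk, fewer cells of a type and less RNA per cell cannot be told apart.

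No member passed the test. With limma over all 12642 genes, 0 of 32 members were called higher and 0 lower at an adjusted p of 0.05, against a background of 0% of all genes in either direction, and the lowest adjusted p of a member was 1.00. At an unadjusted p under 0.05, 0 members were higher, against 1.18% of all genes, and 2 were lower (Car4 and Atp6v1b2), against 2.23% of all genes. The collecting duct exceeded every anlage array for 5 members, 15.6%, where the share of all genes was 17.3%. It lay below all 3 for 8 members, 25%, where the share of all genes was 24.3%. Both shares were close to the background. Because 3 of the 4 arrays behind the filter are anlage, it more readily drops genes bright only in the collecting duct. The counts above thus leave out Rhcg and Slc4a5, which lay above every anlage array, with log2 differences of 2.26 and 1.34. With no filter, 7 of 37 members lay above all 3 anlage arrays (18.9%, against 18.2% of all genes) and 8 below (21.6%, against 25.2%).

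**Figure D1:**
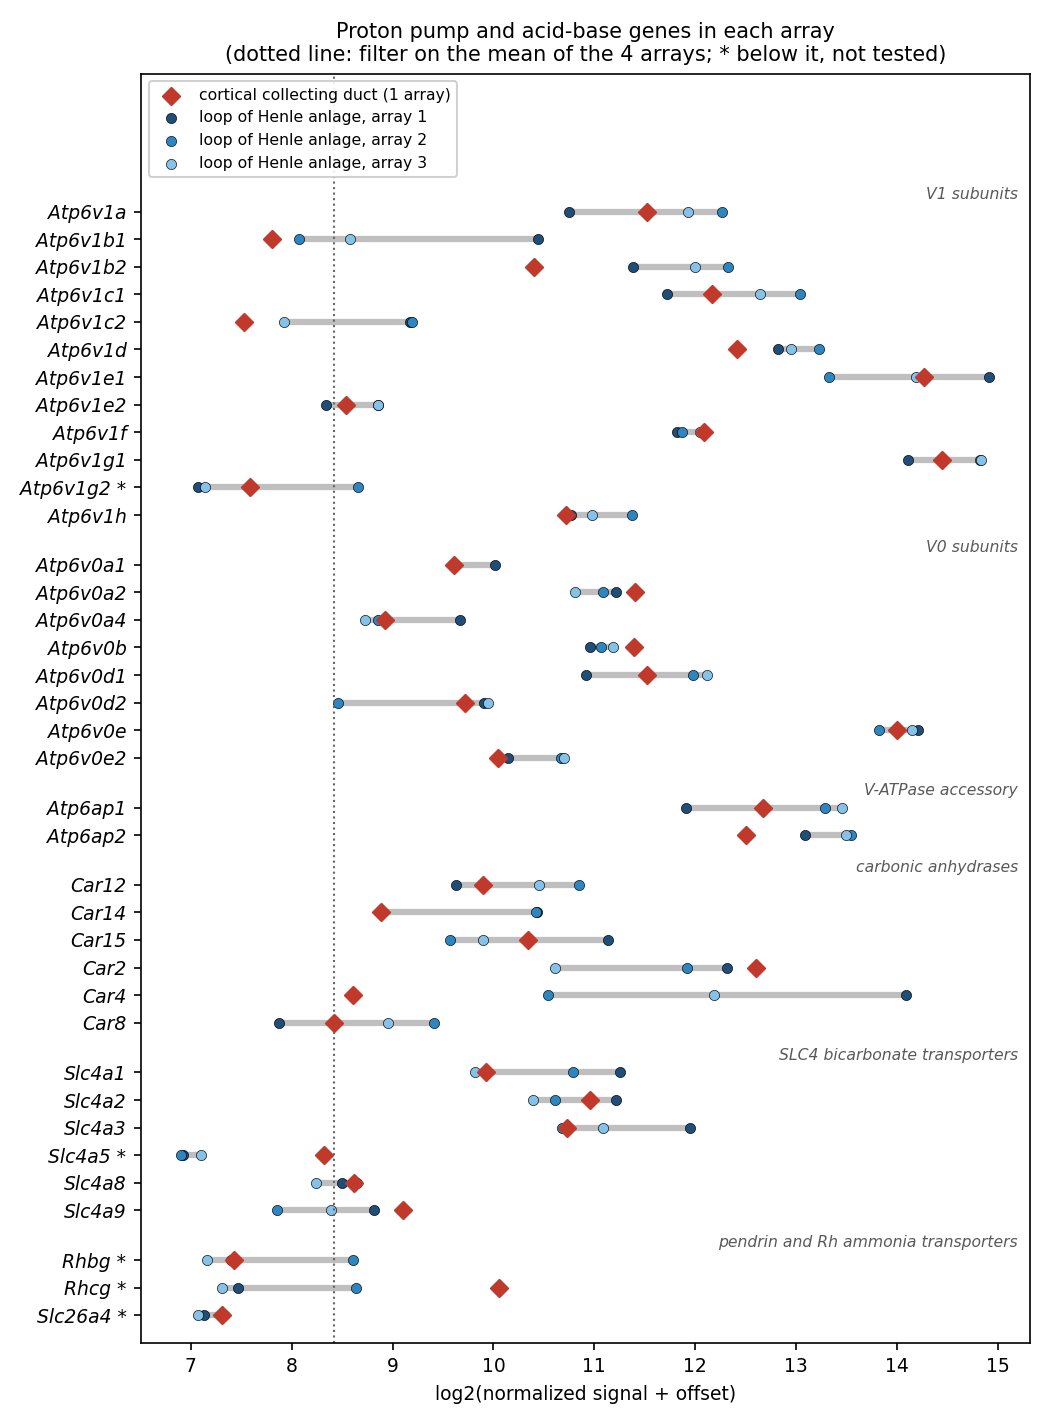
Values of the 37 genes on the log2(normalized signal + offset) scale (x axis), grouped by role (y axis), with the collecting duct array as a red diamond, the 3 anlage arrays as blue circles and the anlage range as a grey bar. Car4 has the widest anlage range, from 10.54 to 14.09, and the collecting duct value of Rhcg, 10.06, lies to the right of its anlage values.

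Car4, a carbonic anhydrase anchored to the outer face of the membrane, differed most. Its signal was 280 in the collecting duct, compared with 17299, 1380 and 4564 in anlage arrays 1, 2 and 3. All 3 anlage arrays were above the collecting duct array, yet array 1 was far above array 2. The log2 value of Car4 was 8.61 in the collecting duct, compared with 12.27 ± 1.78 (SD, n = 3) in the anlage, a difference of −3.67 ± 1.28 (SE, 95% interval −6.80 to −0.54). The limma p was 0.0285 unadjusted and 1.00 after adjustment over all genes. Its second probe set went the same way, with a signal of 312 in the collecting duct, compared with 3172, 1236 and 1701 in the anlage, a log2 difference of −2.25. The log2 difference was −2.96 without anlage array 1 (adjusted p = 0.323) and −4.28 without anlage array 2 (adjusted p = 0.0775).

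The spread of Car4 within the anlage was larger than that of 98.8% of tested genes. Across anlage arrays 1, 2 and 3, the summed signal of the 8 loop markers was 84534, 20104 and 67576, so array 2 was lowest for the markers as it was for Car4. The summed signal of 10 proximal tubule markers was 5207 in the collecting duct, compared with 15777, 11369 and 13084 in the anlage arrays. Fxyd2, a sodium pump regulator that other tubule segments also make, gave much of this sum in anlage arrays 1 and 3, and the other 9 markers summed to 4759 in the collecting duct, compared with 7240, 9553 and 7866 in the anlage. Car4 is also a gene of the proximal tubule. No proximal marker was at 0 in any array, but without detection calls this does not show that such cells were captured. The part of either marker group in the Car4 difference was not tested.

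Car2, the cytosolic carbonic anhydrase of intercalated and other cells, was brightest in the collecting duct. Its signal was 6134 in that array, compared with 4982, 3761 and 1458 in anlage arrays 1, 2 and 3. The groups did not overlap, but anlage array 1 lay close to the collecting duct array. The log2 difference was 0.99 ± 0.77 (SE, 95% interval −0.88 to 2.87), within the spread between arrays, and it was 0.48 without anlage array 3.

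Of the other carbonic anhydrases, the membrane-spanning Car14 had a signal of 364 in the collecting duct, compared with 1275, 1266 and 361 in the anlage arrays. Anlage array 3 was close to the collecting duct while the other two were higher, and the log2 difference was −1.03 ± 0.78 (SE). Car12, also membrane-spanning, Car15, which is membrane-anchored in rodents, and Car8, a relative without enzyme activity, overlapped between groups, with log2 differences of −0.41, 0.14 and −0.33. That of Car12 was −0.82 without anlage array 1 and −0.13 without array 2. Of the 6 carbonic anhydrases, 2 were above the anlage mean and 4 below it, with a median difference of −0.37, against −0.06 over all tested genes.

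**Figure D2:**
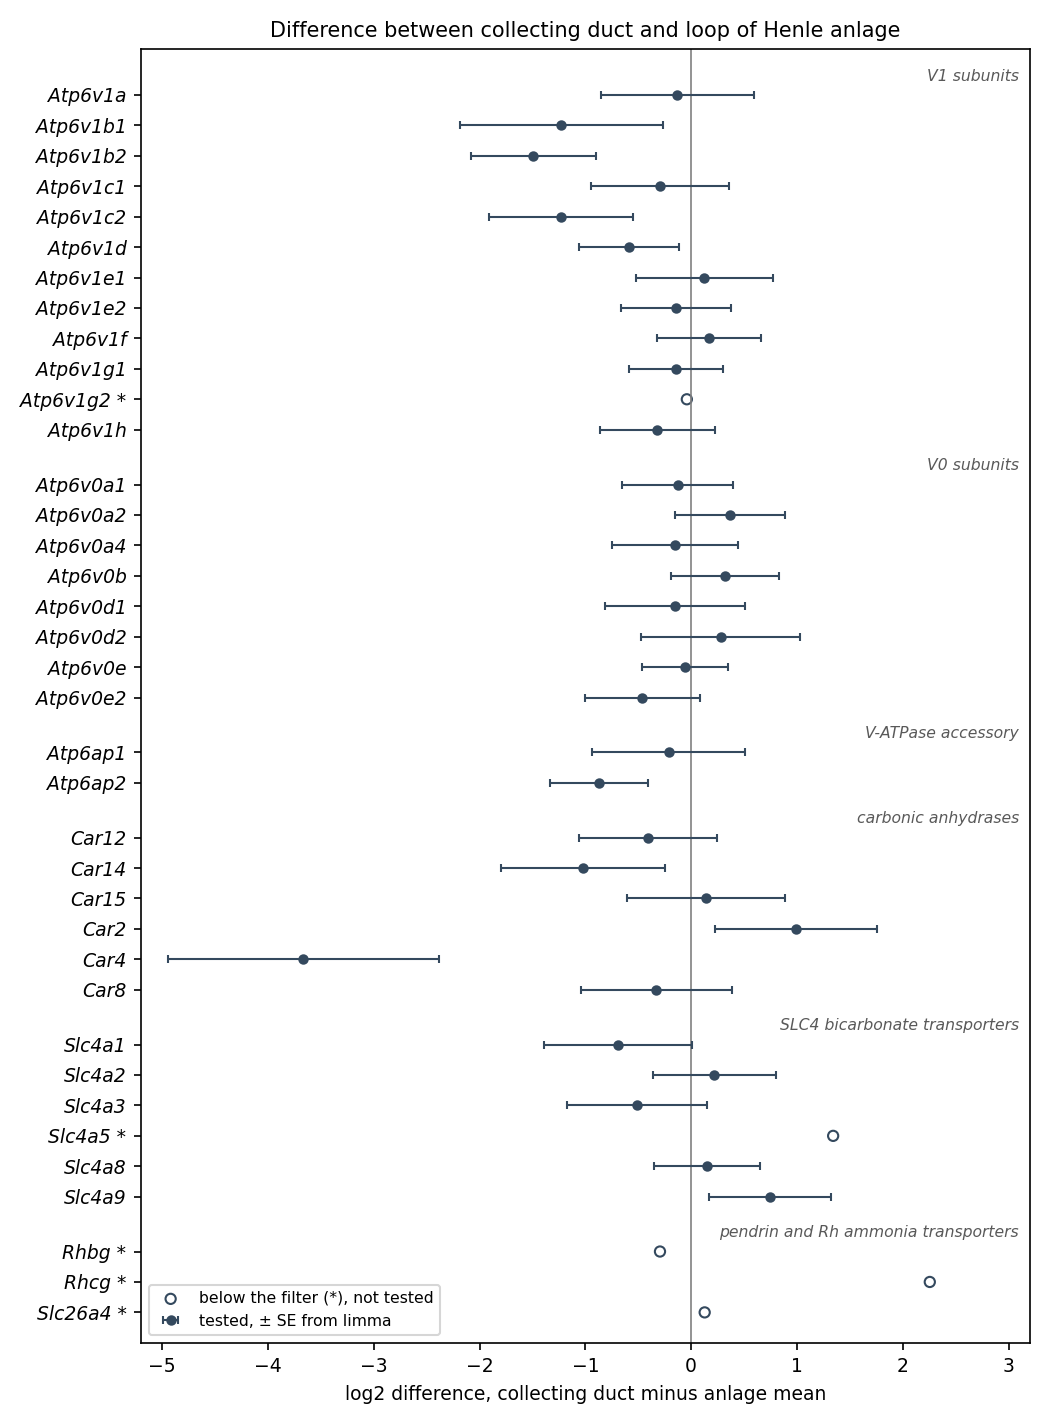
Log2 difference of each member gene, collecting duct minus anlage mean (x axis), by role (y axis), with bars for the limma SE where the gene was tested and open circles where it was below the filter. Car4 lies farthest from 0, at −3.67, and Rhcg highest, at 2.26 with no SE.

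Among V1 subunits, 2 of 11 tested genes were above the anlage mean and 9 below it, with a median log2 difference of −0.30, against −0.06 over all tested genes. For 5 of the 11 (45.5%) the collecting duct lay below all 3 anlage arrays, where the share of all genes was 24.3%, and for 1 (9.09%) above, where it was 17.3%. Among the 5 below, Atp6v1b1 and Atp6v1c2 passed the filter only through their anlage values. Atp6v1h lay only just under the lowest anlage array, and its second probe set above the filter differed by 1.11. The share of 45.5% therefore shows little about V1 subunits as a set. None passed the adjusted test.

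Atp6v1b2, the widely expressed form of the nucleotide-binding B subunit, had a signal of 1246 in the collecting duct, compared with 2556, 5014 and 3973 in anlage arrays 1, 2 and 3. Every anlage array was more than 2-fold above the collecting duct array. The log2 difference was −1.49 ± 0.59 (SE, 95% interval −2.94 to −0.05), with an unadjusted limma p of 0.0443 and an adjusted p of 1.00. Its second probe set above the filter differed by only −0.21, and the mean over its 4 probe sets by −0.62. The 3′ to 5′ ratios moved with these values in part. Across anlage arrays 1, 2 and 3 the Gapdh ratio (10.3, 54.1 and 26.0) ranked as Atp6v1b2 did, as did the beta-actin ratio (3.06, 6.41 and 5.42), while the collecting duct, at 12.0 and 3.56, lay above array 1 in both. The transferrin receptor ratio was 1.38 in the collecting duct, compared with 1.42, 3.28 and 1.55 in the anlage arrays, the same order as Atp6v1b2 in all 4 arrays. The part of RNA integrity or amplification in this difference was not tested.

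Atp6v1b1, the B subunit isoform of intercalated cells, was not higher in the collecting duct. Its signal was 114 in the collecting duct, compared with 1284, 159 and 274 in the anlage arrays. Only anlage array 1 stood well apart, and the spread within the anlage was larger than that of 94.4% of tested genes. The log2 difference was −1.23 ± 0.96 (SE, 95% interval −3.57 to 1.12), and without anlage array 1 it was −0.52.

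Atp6v1c2, a C subunit isoform with restricted expression, had a signal of 75.2 in the collecting duct, compared with 468, 474 and 133 in the anlage arrays. Its log2 difference was −1.23 ± 0.68 (SE). Because the collecting duct signal was below the offset of 109.6, the size depends on that offset: it was −1.85 with an offset of 16 and −0.67 with the offset at the median.

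The remaining V1 genes had smaller differences. Atp6v1a, the catalytic subunit, differed by −0.13 ± 0.73 (SE). The rotor subunit Atp6v1d stood below all 3 anlage arrays, at a signal of 5349 in the collecting duct, compared with 7134, 9511 and 7816 in the anlage, a log2 difference of −0.59 ± 0.47 (SE), and its other probe sets went the same way. The rotor subunit Atp6v1f lay just above them, at 4234 in the collecting duct, compared with 3513, 3625 and 4132 in the anlage, a log2 difference of 0.17 ± 0.49. The stator subunits Atp6v1e1, Atp6v1e2 and Atp6v1g1 overlapped between groups, and the regulatory subunit Atp6v1h, at 1579 in the collecting duct array, was just under the lowest anlage value of 1631.

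V0 subunits showed smaller differences, from −0.46 to 0.37 on the log2 scale over 8 tested genes, of which 3 were higher and 5 lower. Atp6v0a2, a membrane a subunit of endosomes and the Golgi, had a signal of 2598 in the collecting duct, compared with 2269, 2060 and 1679 in the anlage. Its 3 probe sets all put the collecting duct above every anlage array, with log2 differences of 0.37 to 0.67. The brightest differed by 0.37 ± 0.52 (SE, 95% interval −0.91 to 1.64), so the difference was within the error of the fit. Atp6v0b, a proton-carrying ring subunit, had a signal of 2576 in the collecting duct, compared with 1885, 2030 and 2216 in the anlage, but its 3 probe sets differed by −0.27 to 0.85. Atp6v0e, a small membrane subunit, had a signal of 16318 in the collecting duct array within an anlage range of 14344 to 18901.

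Both accessory genes were below the anlage mean. Atp6ap2, the prorenin receptor, had a signal of 5706 in the collecting duct, compared with 8618, 11846 and 11417 in the anlage, and its 3 probe sets all lay below every anlage array, by −1.37 to −0.79 on the log2 scale. The brightest differed by −0.87 ± 0.46 (SE, 95% interval −2.00 to 0.26). Atp6ap1, which guides pump assembly and trafficking, had a signal of 6415 in the collecting duct array, inside the anlage range of 3749 to 11121, and differed by −0.21 ± 0.72.

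**Figure D3:**
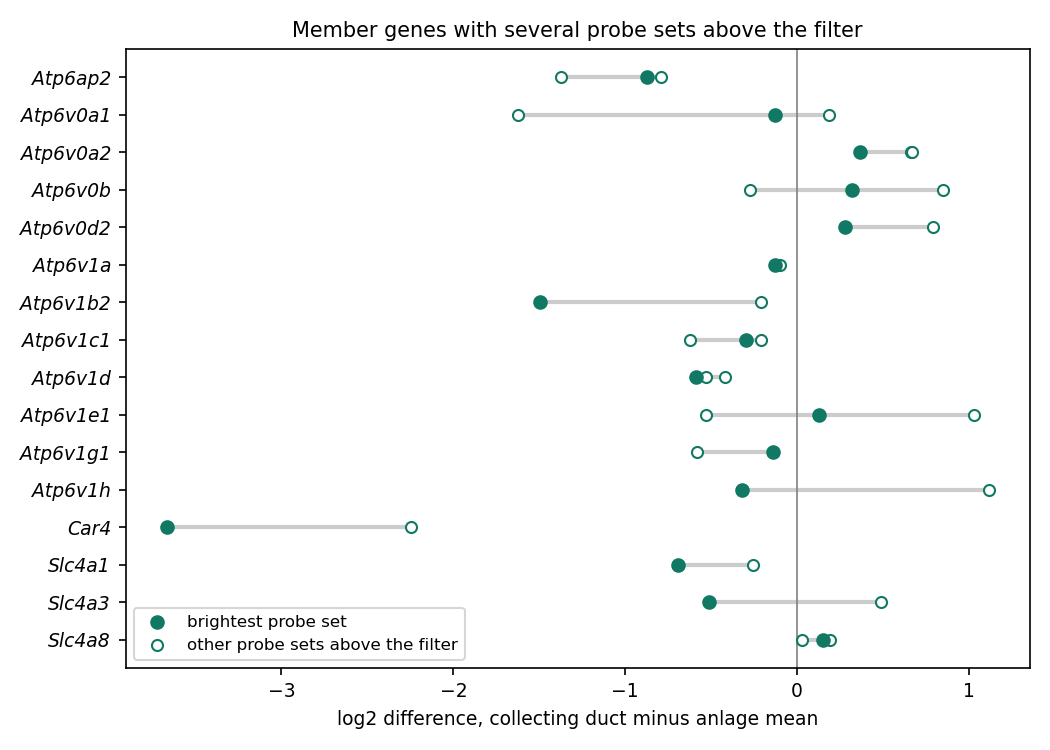
Log2 difference, collecting duct minus anlage mean (x axis), of every probe set above the filter for the 16 member genes that have several (y axis), with the brightest filled and the others open. The sign is shared in 11 genes and differs in 5, and the 2 probe sets of Car4 lie at −3.67 and −2.25.

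Probe sets of a gene read different stretches of its transcripts, and 16 members had more than 1 above the filter. In 11 of these all probe sets had the same sign, lower in the collecting duct for 8 and higher for 3. In Atp6v0a1, Atp6v0b, Atp6v1e1, Atp6v1h and Slc4a3 they disagreed. For Atp6v0a1 they ran from −1.62 to 0.19 and for Atp6v1e1 from −0.53 to 1.03, so the direction of these genes depends on the probe set. The brightest probe sets of Atp6ap2, Atp6v0b and Slc4a1 carry the suffix _x_at and those of Atp6ap1, Atp6v1e1 and Car14 the suffix _s_at, which on this platform mark probes that may also bind other transcripts.

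Of 5 isoform pairs, in which 1 form is typical of intercalated cells and its paralog is widely expressed, 4 had probe sets for both. For the B subunit, Atp6v1b1 differed by −1.23 and Atp6v1b2 by −1.49. For the C subunit, Atp6v1c2 differed by −1.23 and Atp6v1c1 by −0.30. In the membrane sector, Atp6v0a4 differed by −0.16 and Atp6v0a1 by −0.13, and Atp6v0d2 by 0.28 and Atp6v0d1 by −0.15. The restricted form was above every anlage array in 0 of the 4 pairs, where the share of all genes was 17.3%, and below in 2 (Atp6v1b1 and Atp6v1c2), where it was 24.3%. With 4 genes, 2 of which passed the filter only through their anlage values, these counts show little. No test of the differences between paralogs was made.

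The signals behind the membrane-sector pairs overlapped. Atp6v0a4 had a signal of 377 in the collecting duct, compared with 705, 353 and 313 in the anlage, and Atp6v0a1 had 672 in the collecting duct, compared with 924, 665 and 671 in the anlage. Atp6v0d2 had 730 in the collecting duct, compared with 850, 241 and 874 in the anlage, anlage array 2 being the low one. Atp6v0d1 had 2825 in the collecting duct, compared with 1831, 3916 and 4347 in the anlage. Atp6v1c1 had 4505 in the collecting duct, compared with 3265, 8325 and 6299 in the anlage. In both of these widely expressed genes anlage array 1 was lowest, as it was for 13 of 21 tested V-ATPase genes (61.9%) and for 52.7% of all tested genes. Atp6v1g1, the paralog of Atp6v1g3, had a signal of 22255 in the collecting duct, compared with 17556, 28986 and 29132 in the anlage, a log2 difference of −0.14 ± 0.45 (SE).

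**Figure D4:**
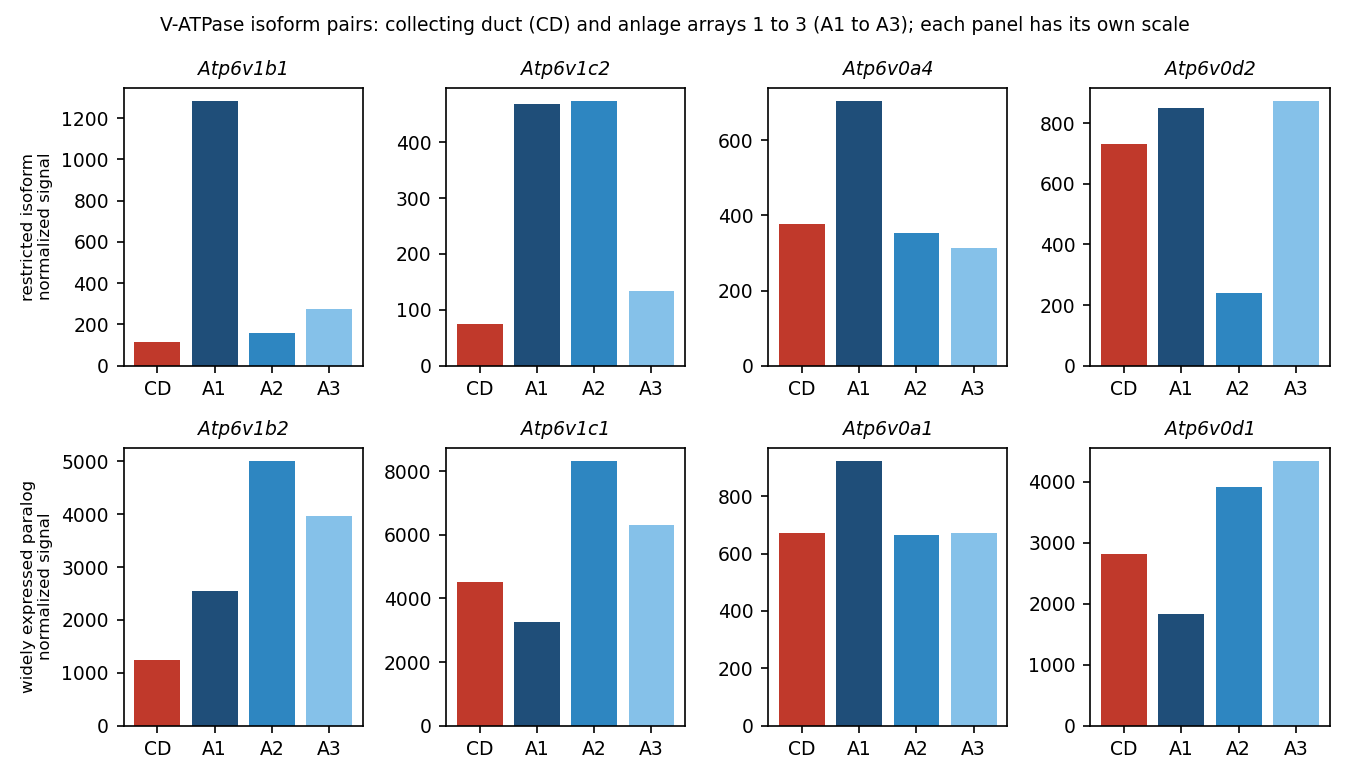
Normalized signal (y axis, from 0, each panel on its own scale) of 4 V-ATPase isoform pairs in the collecting duct array (CD) and anlage arrays 1 to 3 (A1 to A3), restricted isoforms above and their widely expressed paralogs below. Atp6v1b1 is high in A1 only, at 1284, while Atp6v1b2 is lowest in CD, at 1246.

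SLC4 bicarbonate transporters had 5 tested members, 3 with a higher and 2 with a lower value in the collecting duct, and a median log2 difference of 0.15. Slc4a1, the chloride-bicarbonate exchanger of red cells and of acid-secreting intercalated cells, had a signal of 864 in the collecting duct, compared with 2334, 1663 and 793 in the anlage. The log2 difference was −0.69 ± 0.70 (SE), and it was −0.41 without anlage array 1, −1.08 without array 3 and −0.29 over the mean of its probe sets. Slc4a9, an exchanger of base-secreting intercalated cells, had a signal of 439 in the collecting duct, compared with 342, 122 and 225 in the anlage. It lay above all 3 anlage arrays by a log2 difference of 0.75 ± 0.58, within the error. The anion exchangers Slc4a2 and Slc4a3 and the sodium-driven exchanger Slc4a8 overlapped between groups, at 0.22, −0.51 and 0.15.

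Erythroid genes bear on Slc4a1 and Car2, which red cells also make. Of 12 listed erythroid markers, 7 had a probe set, and their summed signal was 6339 in the collecting duct array, within the anlage range of 5290 to 13209. The globin Hbb-y gave most of it, at 5068 in the collecting duct and 3797 to 11045 in the anlage. No erythroid marker was at 0, which without detection calls does not show that red cells were captured. Among 9 macrophage and osteoclast markers, cells that also make much V-ATPase, the summed signal was 4564 in the collecting duct array and 5726 to 7811 in the anlage. The part of such cells in the member values was not tested.

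Rhcg, an ammonia transporter of the collecting duct, was bright in the collecting duct array alone. Its signal was 957 in that array, against 66.8, 290 and 48.7 in anlage arrays 1, 2 and 3. The groups did not overlap, and the log2 difference was 2.26. Its mean over the 4 arrays fell just below the filter, so it was not tested with the others. With no filter, limma gave an SE of 0.68, an unadjusted p of 0.0175 and an adjusted p of 1.00. The difference was 3.05 with an offset of 16 and 1.43 with the offset at the median.

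Slc4a5, a sodium-bicarbonate cotransporter, also stood above the anlage, at a signal of 210 in the collecting duct, compared with 11.7, 10.3 and 27.8 in the anlage, where every value was below the offset. Its log2 difference was 1.34. With no filter, limma gave an SE of 0.29, an unadjusted p of 0.0041 and an adjusted p of 1.00. The size rests on the offset, being 2.83 with an offset of 16 and 0.58 with the offset at the median. The related ammonia transporter Rhbg had 62.6 in the collecting duct, compared with 59.6, 281 and 33.1 in the anlage. Pendrin, the chloride-bicarbonate exchanger of base-secreting cells, had 48.5 in the collecting duct, compared with 30.7, 51.0 and 24.8 in the anlage. All 4 pendrin values were below the offset, and without detection calls absence cannot be stated.

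Foxi1, the forkhead transcription factor that directs intercalated cell fate, is not a member. Its signal was 620 in the collecting duct, compared with 68.1, 124 and 43.1 in the anlage, and it was below the filter and not tested. Of 11 intercalated cell markers, which include members, 10 had a probe set. The collecting duct array was above all 3 anlage arrays for 4 (Car2, Foxi1, Rhcg and Slc4a9), below all 3 for 1 (Atp6v1b1) and within their range for 5. These include genes below the filter. With no filter, the shares of all genes were 18.2% above and 25.2% below. Of the 6 that were tested, 2 were above and 1 below, where the shares of all tested genes were 17.3% and 24.3%. Their summed signal was 10484 in the collecting duct, compared with 10962, 7005 and 4223 in the anlage arrays, so the collecting duct sum lay inside the anlage range. Car2 and Slc4a1, which red cells also make, gave most of it, and the other 8 markers summed to 3486 in the collecting duct, compared with 3646, 1581 and 1972 in the anlage.

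**Figure D5:**
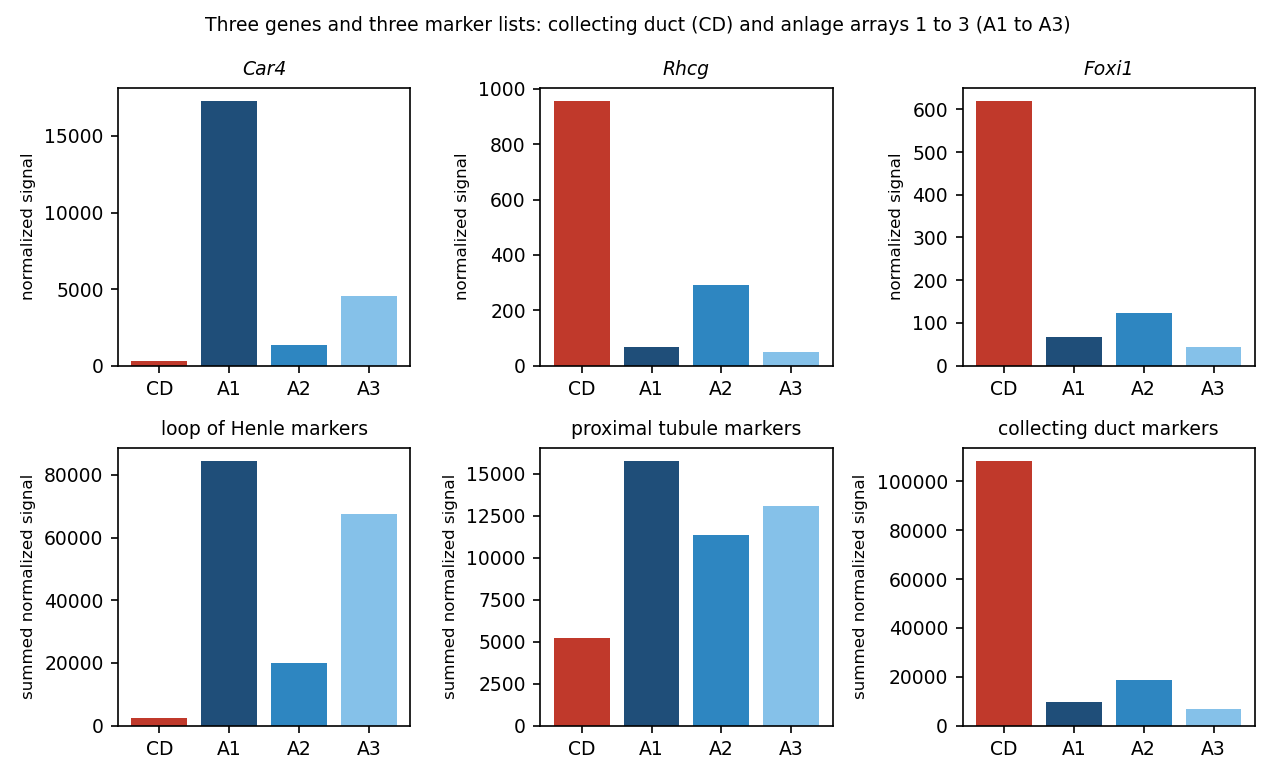
Normalized signal of Car4, Rhcg and Foxi1 (upper row) and summed normalized signal of 8 loop, 10 proximal tubule and 10 collecting duct markers (lower row), y axes from 0, in the collecting duct array (CD) and anlage arrays 1 to 3 (A1 to A3). Car4 is lowest in CD and A2, where the loop markers are lowest too, and Rhcg and Foxi1 are highest in CD, at 957 and 620.

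Of 41 other acid-base and V-ATPase genes, 40 had a probe set and 21 were tested, 11 with a higher and 10 with a lower value in the collecting duct and 0 passing after adjustment. The largest differences were in the apical sodium-proton exchanger Slc9a3, at a signal of 279 in the collecting duct, compared with 10389, 4133 and 9799 in the anlage (log2 difference −4.29 ± 0.69, SE), and in the anion exchanger Slc26a7, at 931 in the collecting duct, compared with 3023, 13359 and 6116 in the anlage (−2.62 ± 0.85). The proton exchanger Slc9a8 differed by 1.80 ± 1.02, the anion exchanger Slc26a6 by 1.04 ± 0.59, the pump assembly gene Tmem199 by −1.02 ± 0.74 and Slc4a11, an SLC4 relative, by −0.91 ± 0.61. Tcirg1, the osteoclast form of the V0 a subunit, had 1494 in the collecting duct array within an anlage range of 1293 to 1624, a difference of 0.01 ± 0.52.

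The anlage arrays also differed among themselves for the members, which is given as a description. Of the 11 tested members outside the V-ATPase, anlage array 1 was highest for 8 (72.7%), against 27.3% of all tested genes, array 2 for 3, against 45.7%, and array 3 for 0, against 27.0%. Of the 21 V-ATPase genes, arrays 1, 2 and 3 were highest for 6 (28.6%), 8 (38.1%) and 7 (33.3%). The difference between the 2 sets of genes was not tested. The median anlage SD was 0.73 on the log2 scale for the 11 and 0.42 for the 21, beside 0.46 for all tested genes. Array 1 also had the lowest Gapdh ratio and the highest sum of loop markers, whose part in these shares was not tested.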

How the data were processed

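Biotin-labelled RNA from 4 captured samples was measured on oligonucleotide arrays. The deposited values were intensity values per probe set on a linear scale, computed by GCOS software (per the submitters' processing notes), whose version is not given in the sources used here. Each deposited column had a mean of 1500 after 2% trimming at each end, and medians ran from 207 to 526. Detection calls were not used here. At most 3 values were identical between any pair of arrays.

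Arrays were quantile normalized and log2(signal + 109.6) was taken, the offset being the 25th percentile. The 64 control probe sets were dropped. Of the other 45037, 34945 had 1 gene symbol, 932 several and 9160 none in the platform table. Entrez numbers matched all 74 member probe sets to RefSeq GRCm38, used for names. The brightest probe set stood for a gene. The filter was the 40th percentile of mean log2 signal over those 45037 probe sets. Genes whose brightest probe set fell under it were not tested, which left 12642 of 18193 genes.

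Collecting duct and anlage were compared by limma 3.58.1 in R 4.3.3 (lmFit, eBayes with trend, two-sided, Benjamini-Hochberg over all genes, threshold 0.05), with 2 residual and 4.04 prior degrees of freedom. The spread of the collecting duct was taken to equal that of the anlage, and the number of arrays limits the precision. An exact permutation of 1 array against 3 cannot go below p = 0.25. Alternatives changed normalization, offset, filter, probe set choice, trend and the anlage arrays used. Marker sums without their brightest genes were added after seeing the data.

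The members, lists and tests were chosen with earlier results of these data known. Values in every array are given for Atp6v1b1, Car2, the isoform pairs and tested members with an unadjusted p under 0.05 or a log2 difference of at least 1. Other members shown per array were chosen after their values were seen. Of the other acid-base genes, the 6 with the largest tested difference, Foxi1 and Tcirg1 were named by the same plan.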

Additional observations from a re-analysis of the deposited data

How the results depend on the processing

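Under 11 alternatives limma called 0 members higher and 0 lower, and the lowest adjusted p was 0.0775 (Car4 without anlage array 2, where 14 of all genes passed). With all arrays 5 members were above the anlage. There was 1 (3.13%, against 10.1% of all genes) under median scaling, which moved the median of all genes to −0.24, and 10 of 56 (17.9%, against 17.5% of all) when probe sets were counted singly. With an anlage array left out the count ran from 6 (without arrays 2 or 3, where all genes gave 27.8% and 22.8%) to 11 of 31 (35.5%, against 25.7% of all, without array 1). The count below, 8 with all arrays, was 18 (32.1%, against 22.5% of all) for single probe sets. With an array left out it ran from 10 (32.3%, against 30.5% of all, without array 2) to 14 (45.2%, against 47.5% of all, without array 1). Fewer arrays make a gap easier for every gene. The median member difference, −0.16, was −0.43 under median scaling and −0.33 to −0.14 with an array left out, −0.33 without array 1. Of the 37 members, 21 kept their sign in all 11 alternatives (13 lower, 8 higher). The 16 others all differed by at most 0.33. Under median scaling Atp6v1e1 turned to −0.25 and Atp6v1f to −0.066. Without normalization Atp6v0a1 turned to 0.12, Atp6v0a4 to 0.054, Atp6v1e2 to 0.021 and Atp6v1g2 to 0.12. Atp6v1g2 was 0.21 with an offset of 16, and Slc4a8 −0.032 with the offset at the median. With the mean of probe sets Atp6v1h turned to 0.14 and Car8 to 0.080. The cause of these turns was not tested.

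With an anlage array left out, the sign turned for Atp6ap1 (−0.72 to 0.074), Atp6v0a1 (−0.19 to 0.0087), Atp6v0a4 (−0.34 to 0.14), Atp6v0d1 (−0.56 to 0.071), Atp6v0d2 (−0.20 to 0.54), Atp6v0e (−0.17 to 0.018), Atp6v1a (−0.61 to 0.16), Atp6v1e1 (−0.30 to 0.51), Atp6v1g2 (−0.32 to 0.48), Car15 (−0.16 to 0.66), Car8 (−0.80 to 0.0054), Rhbg (−0.59 to 0.15) and Slc4a8 (−0.39 to 0.24). Another 14 members kept their sign but moved over 1.5 times, among them Atp6v1c1 (−0.70 to −0.011), Atp6v1g1 (−0.38 to −0.019), Car14 (−1.54 to −0.72), Slc4a3 (−0.74 to −0.17), Slc4a2 (0.046 to 0.49) and Slc4a9 (0.49 to 1.01), and 10 moved less. No paired analysis was possible because the groups share only replicate number 3. Arrays without detection calls give no limit for dim genes such as Slc26a4 and Rhbg.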

Other observations

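Among the listed acid-base genes outside the members, Atp12a and Car3 were chosen after their values were seen. Atp12a, the potassium-transporting proton pump of the colon and collecting duct, had a signal of 687 in the collecting duct, compared with 130, 97.1 and 224 in the anlage arrays, and lay below the filter. Car3, the carbonic anhydrase of muscle and fat, had a signal of 1834 in the collecting duct, compared with 273, 1889 and 44363 in anlage arrays 1, 2 and 3. Its high value thus came from anlage array 3, and the log2 difference was −0.74 ± 2.37 (SE).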
